A study of Mus musculus with 24 samples.

Results

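The genes described are 7 transcription factors that set the identity of invariant natural killer T (iNKT) cells and of the T cell lineages they resemble: Zbtb16, Tbx21, Gata3, Eomes, Runx3, Zfp683 and Zbtb7b. They were chosen by name, for their known roles, out of 55401 genes in the count tables, and all 7 were found in the RNA, methylation and chromatin data used here. iNKT cells are T cells with a nearly invariant T cell receptor that recognizes glycolipids on CD1d. PLZF, encoded by Zbtb16, gives developing iNKT cells their innate-like, tissue-resident program. T-bet (Tbx21) directs the interferon-γ-producing type 1 cells that prevail in the liver, helped in cytotoxic lineages by the related T-box factor Eomes, by Runx3 and by Hobit (Zfp683), a repressor associated with residency in tissues. GATA-3 (Gata3) is needed for T cell development and directs type 2 cytokines, and Th-POK (Zbtb7b) keeps T cells in the CD4 lineage, in opposition to Runx3.

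The cells were αGalCer/CD1d tetramer+ T cells sorted from the livers of NOD mice (LiNKT cells), a strain that develops autoimmune diabetes spontaneously. Mice were untreated or received αGalCer/CD1d-NPs, iron oxide nanoparticles coated with CD1d molecules that present the glycolipid αGalCer, at 20 µg per dose, 2 doses per week, for 5 weeks. SmartSeq2, which reads full-length RNA of cells sorted singly into wells, was done on pools of 3 male mice per group, 13 to 15 weeks old. Whole genome bisulfite sequencing, which reads cytosine methylation, was done on cells of 7 untreated female mice of 17 weeks and 4 treated mice of 16 weeks, and single-nucleus ATAC-seq, which reads where a transposase can insert into open chromatin, on cells of 5 untreated and 4 treated male mice of 13 to 15 weeks. The mice of a group were not separated in the tables, so that each group is 1 sample per assay, no difference has a replicate check, and no test was made. Values are those of these pools. The 95% intervals in parentheses cover counting error only. Those of the RNA sums are too narrow even for that, since SmartSeq2 reads without molecular identifiers are not independent molecules. Those of the chromatin insertions are also too narrow, since both ends of a fragment were counted as if independent. "Called" below means at least 2-fold apart.

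The SmartSeq2 cells used were 273 untreated (172559865 counts) and 251 treated cells (149084200 counts), on medians of 861 and 850 genes per cell. All 6 T cell markers examined (Cd3e, Cd3d, Cd3g, Trac, Trbc1 and Trbc2) were within 2-fold between the groups, and no untreated cell lacked reads on all 6. Of the treated cells, 12 lacked them, and 10 of these 12 had reads on macrophage markers, whose sum was 0.0174 CPM (counts per 1000000) without and 1919 CPM with treatment, led by Lyz2. Of the 5 NK cell markers, 3 were called higher in treated cells (Ncr1, Klra8 and Klra9), with sums over all 5 of 354 CPM (77 untreated cells with reads) and 987 CPM (143 treated cells). B cell markers were at 0.0116 and 0 CPM, hepatocyte markers at 0 and 82.3 CPM, neutrophil markers at 0 and 0.0537 CPM, endothelial markers at 1.05 and 18.5 CPM, and Cd8a, of the CD8 T cell markers, at 28.0 and 55.9 CPM, with Cd8b1 at 0 in both. Without the 12 cells, the macrophage markers summed to 0.529 and the hepatocyte markers to 0.127 CPM in treated cells. The NK cell markers then summed to 1038 CPM in treated cells, and the same number, 3 of 5, were called higher. The RNA values of the 7 factors and of the lists of related genes were also computed without these cells, and are given where a call on a listed gene or the direction of a factor differed.

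The DNA behind the results is shown first: the 3 regions near these genes that were more methylated in treated cells, the region of lower methylation with the largest difference in chromatin in each of Zbtb16 and Tbx21, and the 1 promoter whose chromatin was called. Each was read from the C57BL/6J reference (GRCm38.p6), which can differ from NOD at single bases, along the strand of the gene, with CpG dinucleotides, where methylation was measured, in capitals. The regions of Gata3 and Zbtb7b are whole, those of Zfp683, Zbtb16 and Tbx21 are their central 200 bases, and the Eomes sequence is the 250 bases before the RefSeq start.
Gata3, intron 5, chr2:9862398-9862641 (minus strand): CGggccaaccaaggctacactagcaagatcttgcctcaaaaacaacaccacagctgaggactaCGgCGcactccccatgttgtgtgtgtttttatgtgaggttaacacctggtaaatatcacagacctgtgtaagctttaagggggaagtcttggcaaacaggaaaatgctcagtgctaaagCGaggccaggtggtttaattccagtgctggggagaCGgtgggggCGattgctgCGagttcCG
Zbtb7b, intron 2 and coding exon 3, chr3:89379728-89380002 (minus strand): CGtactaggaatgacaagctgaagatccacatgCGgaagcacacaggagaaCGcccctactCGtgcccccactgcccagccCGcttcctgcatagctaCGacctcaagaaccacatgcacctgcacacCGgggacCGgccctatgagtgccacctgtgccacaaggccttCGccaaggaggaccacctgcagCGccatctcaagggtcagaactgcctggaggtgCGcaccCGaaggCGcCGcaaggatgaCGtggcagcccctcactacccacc
Zfp683, intron 2, chr4:134054783-134054982 (plus strand): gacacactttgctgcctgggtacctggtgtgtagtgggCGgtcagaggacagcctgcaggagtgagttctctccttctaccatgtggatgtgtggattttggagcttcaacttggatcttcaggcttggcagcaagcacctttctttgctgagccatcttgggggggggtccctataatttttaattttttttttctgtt
Zbtb16, intron 2, chr9:48830788-48830987 (minus strand): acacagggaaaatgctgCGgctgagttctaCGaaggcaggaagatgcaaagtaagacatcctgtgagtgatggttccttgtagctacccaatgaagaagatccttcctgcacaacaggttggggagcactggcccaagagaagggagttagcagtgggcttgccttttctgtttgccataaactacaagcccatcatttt
Tbx21, intron 1, chr11:97109143-97109342 (minus strand): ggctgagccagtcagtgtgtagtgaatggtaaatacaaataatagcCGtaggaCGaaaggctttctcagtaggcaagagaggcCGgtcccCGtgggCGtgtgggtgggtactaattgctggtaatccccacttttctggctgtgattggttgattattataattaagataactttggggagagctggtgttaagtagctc
Eomes, promoter, chr9:118477939-118478188 (plus strand): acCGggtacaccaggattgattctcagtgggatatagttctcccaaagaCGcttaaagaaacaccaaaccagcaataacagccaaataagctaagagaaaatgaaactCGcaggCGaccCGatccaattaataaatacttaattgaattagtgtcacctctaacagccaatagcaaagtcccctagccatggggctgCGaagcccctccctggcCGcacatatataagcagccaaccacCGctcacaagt
These stretches were searched on both strands for the core letters that 3 of the factor families bind: TGTGGT for Runx, GGTGTG for the T-box family and AGATAA for GATA factors. The Gata3 region held 1 Runx match, the Zbtb7b region 1 Runx and 1 T-box match that did not overlap, the Zfp683 stretch 1 T-box match and the Tbx21 stretch 1 GATA match. The Zbtb16 stretch and the Eomes promoter held none of the 3. In the central 200 bases of all 2873 differentially methylated regions, TGTGGT was found in 19.9%, GGTGTG in 14.7% and AGATAA in 9.99%, and in 250 bases before 32851 RefSeq starts the shares were 14%, 16.3% and 9.99%. A match is a match of letters and was not tested as a binding site.

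At the RNA level, no factor was called in the summed counts. The 6 that were read in 5% or more of the cells of either group were within 2-fold, as compared to 15.8% called of the 4886 genes that passed the same filter. The share of cells with reads was called for 1 factor, Runx3, which passed the filter through untreated cells alone, with a background of 11.1%. The median log2 ratio (treated over untreated, with 1 CPM added) of the 6 factors that passed the filter was 0.02, beside -0.01 for all 4886 genes, and Eomes did not pass it.

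**Figure D1:**
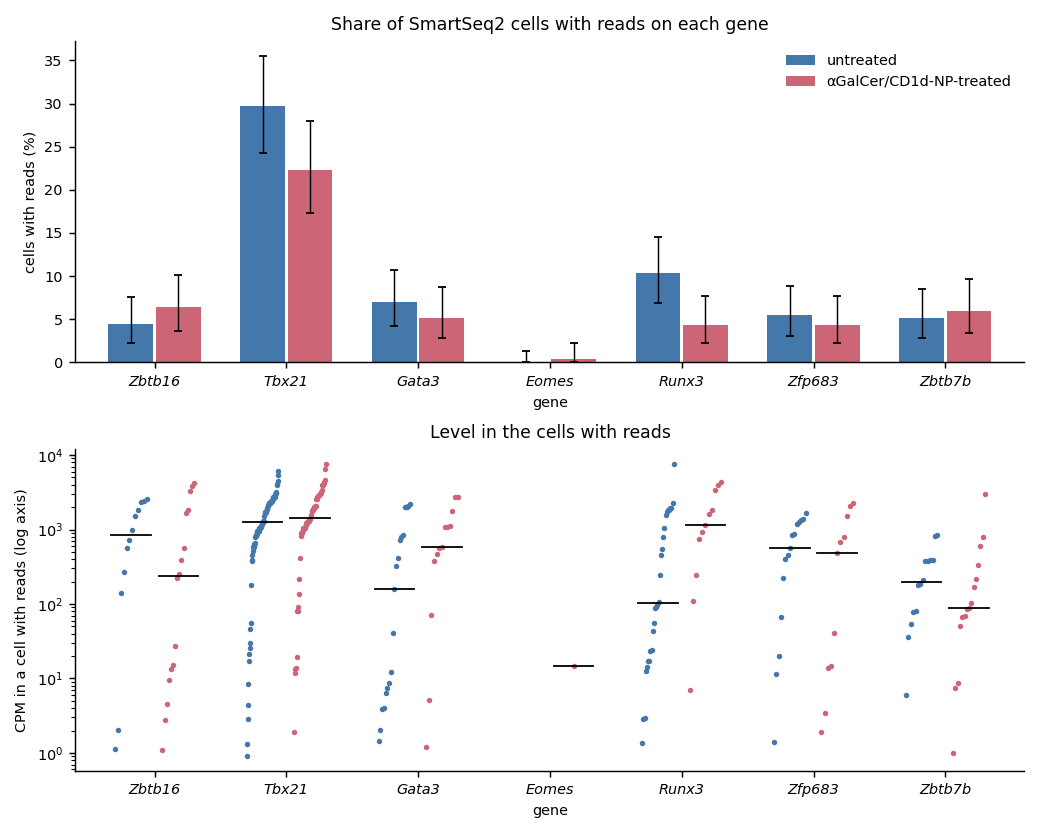
SmartSeq2 reads on the 7 genes in 273 untreated (blue) and 251 treated (red) cells. Above, bars are the percentage of cells with at least 1 read and lines its exact 95% binomial interval; below, each point is the CPM of 1 cell with reads, on a log axis, and the line its median. Tbx21 was read in the most cells of both groups (29.7% and 22.3%), Runx3 in 10.3% and 4.38%, and Eomes in 1 cell of all.

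Tbx21 was the most widely read of the 7. Reads were found in 81 of 273 untreated cells (29.7%, 24.3 to 35.5) and in 56 of 251 treated cells (22.3%, 17.3 to 28.0). Summed over cells, Tbx21 had 463 CPM (460 to 466) without and 432 CPM (429 to 436) with treatment (log2 ratio of -0.10). In the cells with reads, it ranged from 0.913 to 6063 CPM (median of 1279) in untreated and from 1.93 to 7692 CPM (median of 1412) in treated cells. The ranges overlapped over nearly their whole width, and the intervals of the shares overlapped as well. The cell names hold a 1 or a 2, which was taken as the sequencing lane here and below, although no label states it. Within lane 1 the shares were 26.6% and 19.1%, and within lane 2 they were 36% and 29.5%. The sums were 460 and 389 CPM in lane 1, and 470 and 526 CPM in lane 2, so that their direction differed between lanes.

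Runx3, which silences Cd4 and promotes cytotoxic genes, was read in 28 untreated cells (10.3%, 6.92 to 14.5) and in 11 treated cells (4.38%, 2.21 to 7.71). The share was 2.34-fold lower in treated cells, at percentile 3.22 of the ratios of all 4886 genes, while the 2 intervals overlapped. Runx3 passed the filter through the untreated group alone, so that its call and percentile are partly set by the filter. It was lower in lane 1 (9.24% and 4.05%) and in lane 2 (12.4% and 5.13%), after thinning each cell to 100000 counts (10.0% of 270 and 4.44% of 248 cells deep enough), and without the 12 cells that lack T cell markers (10.3% and 4.18%). The sums were 66.7 CPM (65.5 to 68.0) and 68.5 CPM (67.1 to 69.8), but their direction differed between lanes (57.1 and 71.4 CPM in lane 1, 85.0 and 62.0 CPM in lane 2) and was lower in treated cells for means of single cells (log2 ratio of -0.29) and without the highest cell of each group (-0.15). Fewer treated cells carried reads, but with a median of 1134 CPM (7.06 to 4364), against 103 CPM (1.38 to 7670) in untreated cells. Counting only cells with at least 10 reads, 22 untreated and 10 treated cells remained.

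Eomes, by comparison, was nearly unread. No untreated cell had a read (0 of 273, which allows a share of up to 1.10% by 3 cells of the total, or 1.34% by the exact interval), and 1 treated cell held 4 counts (0.398% of cells, 0.0101 to 2.20). The treated sum was 0.0268 CPM (0.00731 to 0.0687), and the untreated counts allow up to 0.0174 CPM by 3 counts, or 0.0214 CPM by the exact interval. At this depth, a difference between the groups was not detectable.

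Hobit transcripts (Zfp683) were found in 15 untreated cells, or 5.49% (3.11 to 8.90), and in 11 treated cells, or 4.38% (2.21 to 7.71), with 36.2 CPM (35.3 to 37.1) and 33.8 CPM (32.9 to 34.7), respectively. In the cells with reads, the lowest, median and highest values were 1.41, 560 and 1670 CPM for untreated, as compared to 1.92, 481 and 2270 CPM for treated cells. The intervals of the shares and the ranges of single cells overlapped. Those of the sums did not, but they treat reads as independent, and 1 cell held 20.6% of the untreated and 28.2% of the treated counts. Without the highest cell of each group the log2 ratio was -0.24, in place of -0.10. In lane 2, where only 5 untreated and 4 treated cells had reads, the sums were 30.4 and 7.25 CPM, and in lane 1 they were 39.3 and 46.0 CPM.

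Transcripts of PLZF (Zbtb16) were read in 12 untreated cells, or 4.40% (2.29 to 7.55), and in 16 treated cells, or 6.37% (3.69 to 10.1). Their sums were 45.7 CPM (44.7 to 46.7) and 71.9 CPM (70.5 to 73.2), respectively, with a log2 ratio of 0.64 at percentile 86.6 of all genes that passed the filter. Zbtb16 passed it through the treated group alone, so that this percentile is partly set by the filter. A single cell held 25.7% of the untreated and 32.3% of the treated counts. The direction differed between lanes: 43.1 and 91.7 CPM in lane 1, and 50.7 and 29.0 CPM in lane 2. Single cells with reads ranged from 1.12 to 2576 CPM (median of 852) in untreated and from 1.08 to 4197 CPM (median of 237) in treated cells, so that the ranges overlapped.

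Gata3 had reads in 19 untreated cells, or 6.96% (4.24 to 10.7), and in 13 treated cells, or 5.18% (2.79 to 8.69), with 44.3 CPM (43.3 to 45.3) and 58.7 CPM (57.5 to 59.9). Its direction also differed between lanes, with 25.7 and 64.2 CPM in lane 1 and 79.5 and 46.8 CPM in lane 2. Untreated cells with reads had a median of 161 CPM (range of 1.44 to 2202), and treated ones of 584 CPM (1.19 to 2766). For both lineage factors the ranges of single cells overlapped, since Zbtb7b spanned 5.97 to 834 CPM (median of 198) in untreated and 0.997 to 2966 CPM (median of 88.2) in treated cells. Zbtb7b had reads in 14 untreated cells, or 5.13% (2.83 to 8.45), and in 15 treated cells, or 5.98% (3.38 to 9.67), at 14.2 CPM (13.6 to 14.8) and 14.3 CPM (13.7 to 14.9). A single treated cell, the one at 2966 CPM, held 39.2% of its treated counts and was among the 12 cells that lack T cell markers. Without these 12, Zbtb7b had reads in 14 treated cells, at 9.13 CPM, with a log2 ratio of -0.58. For means of single cells, with that cell included, the log2 ratio was 0.56. Its direction also differed between lanes, with 10.8 and 13.8 CPM in lane 1 and 20.6 and 15.3 CPM in lane 2.

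Divided by exon length, the order of the 7 levels was nearly the same in both groups. In untreated cells it ran from Tbx21 (186 CPM per kb) over Zfp683 (24.6), Runx3 (13.3), Gata3 (11.1), Zbtb16 (8.65) and Zbtb7b (2.54) to Eomes (0), all in CPM per kb. In treated cells Tbx21 (174 CPM per kb) and Zfp683 (23.0 CPM per kb) were followed by Gata3 (14.8), Runx3 (13.7), Zbtb16 (13.6), Zbtb7b (2.55) and Eomes (0.00646). The shares of cells of Runx3, Gata3, Zfp683, Zbtb7b and Zbtb16 had overlapping intervals in each group. The order of these 5 by share is therefore not separated by the number of cells. These intervals do not measure the spread of the levels per kb, whose order is a description only.

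The factors were rarely read together. Of the untreated cells 53.1% had reads on none of the 7, 35.2% on 1, 8.79% on 2, 2.56% on 3 and 0.366% on 4. Of the treated cells 60.2% had reads on none, 32.3% on 1, 5.98% on 2 and 1.59% on 3. Tbx21 and Gata3 were read in the same cell in 9 untreated and 4 treated cells, where the product of the 2 shares gives 5.64 and 2.90 cells. Runx3 and Zfp683 shared 7 untreated cells (product of 1.54) and 1 treated cell (product of 0.482). Zbtb16 and Tbx21 shared 1 untreated cell (product of 3.56) and 4 treated cells (product of 3.57). Cells with reads on Zfp683 had a median of 1083 genes in the untreated group, against 853 genes in the cells without, and the part of this depth in the shared cells was not tested.

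The deposited cell sheet sorts the cells into sub-clusters. These were made from the same RNA, so that the values are a description. Zbtb16 was read in 10 of 57 treated cells of sub-cluster 5 (17.5%, 8.75 to 29.9). It was read in 2 of 133 treated cells of sub-cluster 4 (1.5%, 0.183 to 5.33) and in none of 43 untreated cells of sub-cluster 4 (exact interval up to 8.22%). In sub-cluster 2 it was read in 4 of 61 treated (6.56%, 1.82 to 15.9) and 12 of 228 untreated cells (5.26%, 2.75 to 9.01). Both of these intervals overlapped that of sub-cluster 5. Neither Runx3 nor Zfp683 was read in the 57 cells of sub-cluster 5 (exact interval up to 6.27%). In treated cells of sub-cluster 4 they were read in 8 (6.02%, 2.63 to 11.5) and 9 cells (6.77%, 3.14 to 12.5), and the intervals overlapped. In untreated cells of sub-cluster 4 the shares were 9.30% for Runx3 and 11.6% for Zfp683. In sub-cluster 2 Runx3 was read in 10.5% of untreated and 4.92% of treated cells, and Zfp683 in 4.39% and 3.28%. Tbx21 was read in 18 of 43 untreated cells of sub-cluster 4 (41.9%, 27 to 57.9) and 38 of 133 treated ones (28.6%, 21.1 to 37.0). In sub-cluster 2 its shares were 27.6% (21.9 to 33.9) in untreated and 11.5% (4.74 to 22.2) in treated cells, and in sub-cluster 5 it was 19.3% (10.0 to 31.9). Zbtb7b was read in 7 cells of sub-cluster 5 (12.3%, 5.08 to 23.7) and in 3 treated cells of sub-cluster 4 (2.26%, 0.468 to 6.45), with sub-cluster 2 between them at 8.20% of treated (2.72 to 18.1) and 5.70% of untreated cells (3.07 to 9.55), and intervals that overlapped. The median number of genes per cell was 967 in sub-cluster 5 and 842 in treated cells of sub-cluster 4, and its part in these shares was not tested.

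Tbx21 was the only member read in at least 10% of all cells. The 3 genes most like it over cells, among 825 genes read in at least 20% of the cells of both groups, were Slc3a2, a subunit of amino acid transporters (Spearman's rho of 0.18 over 273 untreated and 0.27 over 251 treated cells), Ccl5, a chemokine of type 1 and cytotoxic cells (0.12 and 0.20), and Xcl1, a chemokine of NK and T cells (0.18 and 0.13). These correlations are weak, the cells of a group share a library, and cells with reads on Tbx21 had more genes (medians of 950 against 848 in untreated and 911 against 833 in treated cells). They are given as a description.

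Lists of related genes, chosen with results of these data known, held calls in both directions. Of all 4886 genes, 7.94% were called higher and 7.90% lower in treated cells. The calls given below all stood without the 12 cells that lack T cell markers, and Nfil3, a factor of innate lymphoid cells, was then called higher as well (log2 ratio of 1.00). Of the called genes, Tox, Ccl3, S1pr5, S1pr1, Nfil3 and the 3 NK cell markers passed the filter through treated cells alone. Lef1 and Il4ra passed it through untreated cells alone. Such calls, and the counts that hold them, are partly set by the filter. Of the 20 other T cell transcription factors listed, 10 passed the filter and 4 were called: Maf (28.6 and 123 CPM) and Tox (9.91 and 43.6 CPM) were higher in treated cells, and Lef1 (62.2 and 8.51 CPM) and Bhlhe40 (327 and 84.5 CPM) were lower. Of 15 type 1 effector genes, known targets of T-bet, Eomes or Runx3, 14 passed and 6 were higher (median log2 ratio of 0.49). These were the chemokines Ccl3 (34.8 and 151 CPM), Ccl4 (103 and 489 CPM) and Ccl5 (782 and 2406 CPM), the cytotoxic genes Gzmb (1151 and 3344 CPM) and Prf1 (153 and 321 CPM), and the egress receptor S1pr5 (0.191 and 41.9 CPM). Ifng, the leading cytokine of type 1 cells, was within 2-fold at 136 and 192 CPM. Without the 12 cells, among which lay nearly all macrophage marker counts, Ccl3 was at 149 and Ccl4 at 506 CPM in treated cells. Of the 5 NK cell markers, 3 were also called higher in treated cells, while Klra4 (38.0 and 69.8 CPM) and Klri2 (115 and 87.5 CPM) were within 2-fold, and their part in this list was not tested.

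Of 10 innate-like genes linked to PLZF, all passed and 3 were lower in treated cells: Cxcr6, a receptor that keeps iNKT cells in the liver (4638 and 2025 CPM), the activation marker Cd69 (1064 and 373 CPM) and Il18r1, a chain of the IL-18 receptor (160 and 37.3 CPM). The median log2 ratio of all 10 was -0.23, and 7.90% of all 4886 genes were called lower. Among type 2 genes 2 of 8 passed, of which Il4 was higher (31.6 and 72.4 CPM) and its receptor Il4ra lower (183 and 50.5 CPM). None of 7 iNKT17 genes passed the filter, with Il1r1, a receptor of IL-1, at 1.98 and 0 CPM. Of 6 genes that are low in resident cells 3 passed, where the egress receptor S1pr1 was higher (9.49 and 61.9 CPM) and Lef1, counted above, lower. Of 4 genes of the CD4 and CD8 lineages only Cd4 passed, at 79.3 and 207 CPM.

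DNA methylation was measured in LiNKT cells of other mice. Within 50 kb of the gene bodies of 5 of the 7 factors lay 10 differentially methylated regions, called by the authors between the groups. Of these, 7 were less and 3 more methylated in treated cells. Over the genome 16.7% of 21951 protein-coding genes had a region within 50 kb, and 28.7% of the 3577 of them that passed the RNA filter. By direction, 3 of 7 factors had a region of lower methylation (background of 11.3%, or 20.2% of the genes that passed), and 3 of 7 one of higher methylation (6.92%, or 12.5%). Eomes and Runx3 had none. The windows differ in length, since Zbtb16 spans 181926 and Zfp683 5159 bases, but all 10 regions also lay within 50 kb of the start of their gene, as did a region for 12.7% of protein-coding genes.

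**Figure D2:**
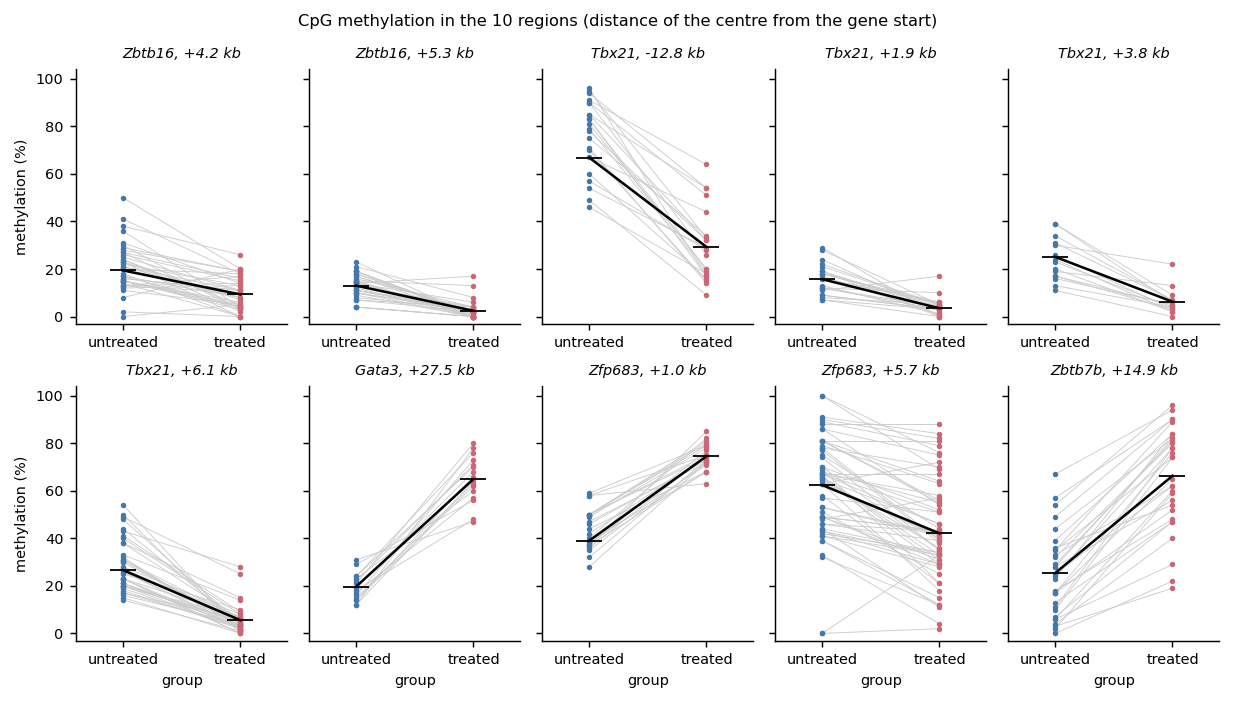
Methylation (%) of each CpG cytosine in the 10 regions, in untreated (blue) and treated (red) cells, with grey lines joining the same cytosine and black bars at the group means of the region table. Titles give the gene and the distance in kb of the region's centre from the gene start, negative if upstream. Gata3, Zbtb7b and the first Zfp683 region gained methylation, and the other 7 lost it.

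Tbx21 had 4 regions, all of lower methylation in treated cells. At least 4 regions were found for 0.938% of protein-coding genes, and for 2.52% of those that passed the RNA filter. Upstream, at chr11:97127921-97128380, 12.8 kb before the start, methylation was 66.9% in untreated and 29.3% in treated cells (22 CpGs, counted on both strands). The other 3 lay in intron 1 and began low: chr11:97113006-97113869 went from 15.7% to 3.50%, chr11:97111162-97111888 from 25.1% to 6.25%, and chr11:97108811-97109674 from 26.6% to 5.55%. Over the single CpG cytosines of the last, the mean was 28.6% ± 10.6 (SD over 41 sites) in untreated and 5.56% ± 5.89 in treated cells, and it was lower at 41 of 41 sites. In the 4 regions together, the sites that were not lower numbered 1, in the region nearest to the start. The regions here and below were called from the methylation of these same sites, and both strands of a CpG count as separate sites. Counts of sites by direction are therefore partly fixed by that calling and are a description only.

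Zbtb16 had 2 regions of lower methylation, at chr9:48831587-48832404, which spans exon 2 and the start of intron 2 (19.4% to 9.30%, 662 of its 818 bases coding), and at chr9:48830456-48831318 within intron 2 (13.0% to 2.44%). Per site, the second was 13.3% ± 4.82 in untreated and 2.47% ± 3.64 in treated cells (SD over 36 sites), with 35 of 36 sites lower. The 2 regions had among the smallest differences of all 1983 regions of lower methylation, at percentiles 0.252 and 0.908. From starts of 19.4% and 13.0%, however, neither could have reached the median difference of those regions, -37.6 percentage points. The 5 regions inside Tbx21 and Zbtb16 had in common that they were already mostly unmethylated in untreated cells. Of all regions of lower methylation, 162 (8.17%) started under 40%, and the median start was 83.2%. The starting levels of these 5 regions, 13.0% to 26.6%, lay at percentiles 0.706 to 5.60 of those 1983 starts.

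Regions of higher methylation were found in Gata3, Zbtb7b and Zfp683. In Gata3 the region at chr2:9862398-9862641, in intron 5 and shown above, went from 19.7% to 64.9%. All 16 sites were higher, with means of 19.4% ± 5.76 (SD over sites) in untreated and 64.9% ± 9.82 in treated cells. Its difference of 45.2 percentage points was at percentile 88.9 of the 890 regions of higher methylation. In Zbtb7b the region at chr3:89379728-89380002, of which 267 of 275 bases are coding sequence, went from 25.4% to 66.3%, and all 31 sites were higher. It was the densest of the 10, with 5.45 CpGs per 100 bases.

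Zfp683 had a region of each kind 1.04 kb and 5.66 kb from its start. The first, at chr4:134054471-134055293 over exon 2 and intron 2, went from 39.0% to 74.5%, with 24 of 24 sites higher. The second, at chr4:134058623-134060370, over the last intron and exon and the DNA behind the gene, went from 62.4% to 42.1%, with 53 of 60 sites lower and 4 higher. The sites of this region varied widely, with an SD of 20.6 percentage points in untreated and 20.9 in treated cells, as did those of Zbtb7b (17.5 and 21). The starting levels of the 3 regions of higher methylation, 19.7% to 39.0%, lay at percentiles 47.8 to 81.0 of all such regions. How many reads stand behind a site is unknown, and no site has an interval.

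The lists of related genes were counted in the same way, beside the 16.7% of protein-coding genes with a region (28.7% of those that passed the RNA filter). A region counted for every gene within 50 kb of it, so that listed genes that are neighbours can share regions. Of the 20 other transcription factors 12 had a region within 50 kb, 11 a lower and 5 a higher one, among them Irf4 (9 lower), Runx2 (8 lower, 1 higher) and Prdm1 (7 lower, 1 higher). Of 15 type 1 effector genes 8 had a region, all lower, among them Ifng with 3. Of the PLZF-linked genes 7 of 10 had one, with lower regions at 4 and higher ones at 5 (Cxcr6 had 1 lower and 3 higher). Of the type 2 genes 5 of 8 had one, with lower regions at 4 and higher ones at 4. Of the iNKT17 genes 1 of 7 had a region (lower), and of the genes low in resident cells 4 of 6 had one, lower at 3 and higher at 4. Of the CD4 and CD8 lineage genes only Cd4, which Runx3 and Th-POK regulate in opposite directions, had regions (4, all lower).

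Chromatin accessibility was read from 156279240 fragments of 15802 barcodes with at least 1000 fragments. No doublets were removed, and single barcodes had up to 487765 fragments in one set and 527233 in the other. A barcode stands for a nucleus and ends in 1 or 2, which was taken as the mark of 1 of 2 libraries, although no label states it. Which ending is the untreated and which the treated group is not stated, so that both are given and none is assigned. Ending 1 had 8565 barcodes (median of 7104 fragments) and ending 2 had 7237 (median of 8591), and 100 barcode sequences occurred with both endings (1.38% of the smaller set). Each fragment end is a transposase insertion, and values are insertions per 1000000 insertions of the same ending (IPM). Promoters were 2 kb on either side of the GENCODE gene start. Promoters of the 3 T cell markers among protein-coding genes had 39.9 to 61.3 IPM in ending 1 and 41.7 to 63.6 in ending 2, and those of NK cell markers 0.234 to 4.43 and 0.274 to 8.10.

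Of the 7 promoters, 1 was called between the endings, that of Eomes. It had 3.98 IPM (3.68 to 4.30) in ending 1 and 10.5 (9.99 to 11.0) in ending 2, which is 2.64-fold apart. Of all 20908 promoters with at least 10 insertions, 11.2% were called, and the ratio of Eomes was at percentile 96.0. Nuclei with an insertion there were 279 (3.26%, 2.89 to 3.66) in ending 1 and 648 (8.95%, 8.31 to 9.64) in ending 2. The depths of these nuclei were similar (medians of 12999 and 13192 fragments), while over all nuclei ending 2 was deeper (medians of 7104 and 8591). The values rest on 647 and 1572 insertions. The intervals of the shares of nuclei, which count each nucleus once, did not overlap, but each ending was taken as a single library. The summed promoters of the 5 NK cell markers were at 10.9 and 19.3 IPM in the same endings, and the part of NK cells in the Eomes value was not tested.

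Among the others, Zbtb7b was the most open, with 84.2 IPM in ending 1 and 86.7 in ending 2, at percentiles 95.3 and 96.0 of all protein-coding promoters. Runx3 had 58.6 and 55.8, Zbtb16 45.8 and 41.7, Tbx21 36.7 and 40.6, Gata3 21.6 and 18.5, and Zfp683 15.3 and 11.6 IPM. The ratios ran from 1.03-fold for Zbtb7b to 1.32-fold for Zfp683. The order of the 7 promoters was the same in both endings. In ending 2, however, the intervals of Zbtb16 and Tbx21 overlapped, and those of Zfp683 (11.0 to 12.1) and Eomes (9.99 to 11.0) met. The order differed from that of RNA per kb, where Tbx21 led and Zbtb7b came before Eomes only. At the RefSeq start of Gata3, which lies 11.4 kb inside the GENCODE gene, insertions were 77.6 (76.2 to 78.9) and 78.8 (77.4 to 80.3) IPM, so that the value of Gata3 depends on the start. The inner RefSeq start of Runx3, 31.9 kb downstream, had 45.0 and 42.6 IPM.

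**Figure D3:**
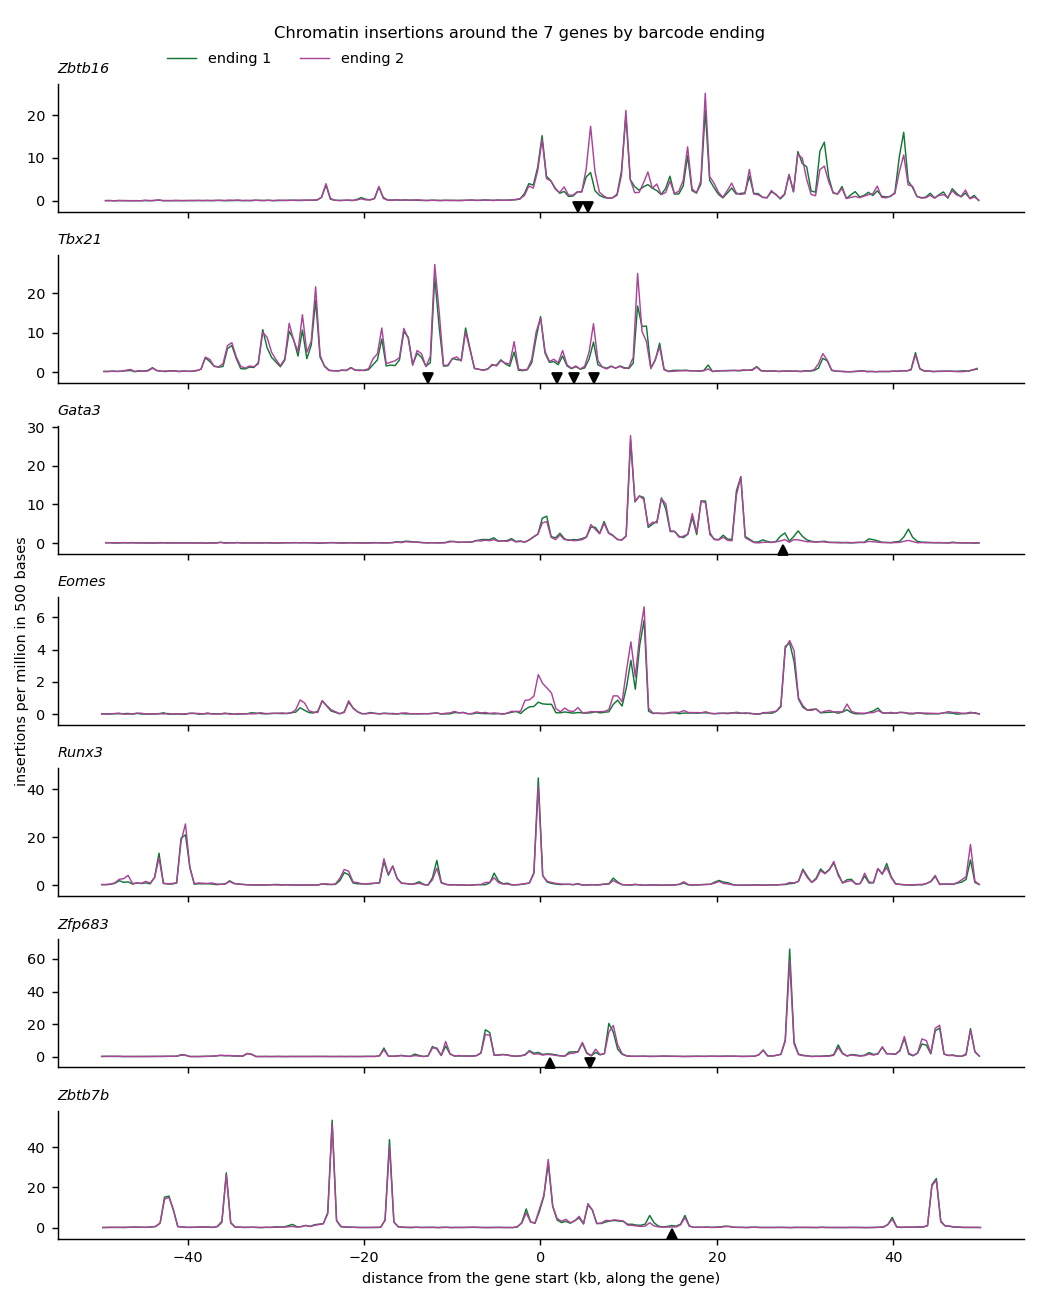
Insertions per 1000000 (IPM) in windows of 500 bases within 50 kb of the start of each gene, by barcode ending (green, 1; purple, 2), with the gene running to the right. Downward triangles mark regions of lower and upward triangles regions of higher methylation in treated cells. Most peaks are found in both endings, and the heights differ at some, such as at the Eomes start, 11.0 kb inside Tbx21, and at the Zbtb16 region 5.33 kb inside the gene.

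The most open windows were mostly outside of the promoters. For Tbx21 the window at chr11:97127071-97127570, 12 kb upstream, had 24.2 (23.5 to 25) and 27.4 (26.6 to 28.3) IPM, 53.8-fold above the median window, and lies beside the upstream region of lower methylation without overlapping it. The second, 11.0 kb inside the gene at chr11:97104071-97104570, had 16.8 and 25.1. For Zbtb16 the first window was in the gene, 18.7 kb from the start, with 21.1 and 25.1 IPM. For Gata3 it was 10.2 kb inside the GENCODE gene and within 2 kb of the RefSeq start, with 26.5 and 27.8. This Gata3 window also lay within 2 kb of the start of another gene, 4930412O13Rik. For Zfp683 it was 28.2 kb downstream, with 66.1 and 58.9, and for Zbtb7b the 2 most open windows lay at promoters of neighbouring genes and the next, 0.882 kb inside Zbtb7b, had 31.9 and 33.9. For Runx3 a window 85.7 kb from the start, behind the gene, had 46.8 and 40.3, close to the 44.6 and 41.2 at the promoter. For Eomes the window 11.7 kb downstream (5.83 and 6.65) exceeded the one just before its start (0.75 and 2.45). Windows were ranked by the mean of the 2 endings, and by this ranking none of the 4 most open of any factor overlapped a differentially methylated region. In ending 2 alone, the Zbtb16 window 5.68 kb inside the gene, over its intron 2 region, had 17.4 IPM (6.61 in ending 1). That exceeded the 14.3 IPM in ending 2 of the window at the Zbtb16 start, which is among its 4.

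Within the 10 regions themselves, the 7 of lower methylation had higher IPM in ending 2 than in ending 1, and the 3 of higher methylation had lower IPM. The intervals of 3 of the 7 overlapped (the first Zbtb16 region and the Tbx21 regions 12.8 kb before and 3.81 kb after the start), and no ending was assigned to a group from these values. At the Gata3 region they were 2.45 IPM (2.22 to 2.71) in ending 1 and 0.715 (0.586 to 0.864) in ending 2, 3.43-fold apart. At the Zbtb7b region they were 0.738 (0.612 to 0.882) and 0.227 (0.157 to 0.318), 3.25-fold apart, on 120 and 34 insertions. At the Zfp683 region of higher methylation they were 2.79 and 2.18 IPM. Of all 854 regions of higher methylation with at least 10 insertions, 36.1% were at least 2-fold lower in ending 2, as were 2 of these 3, and 2.11% were at least 2-fold higher, as was none of the 3.

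**Figure D4:**
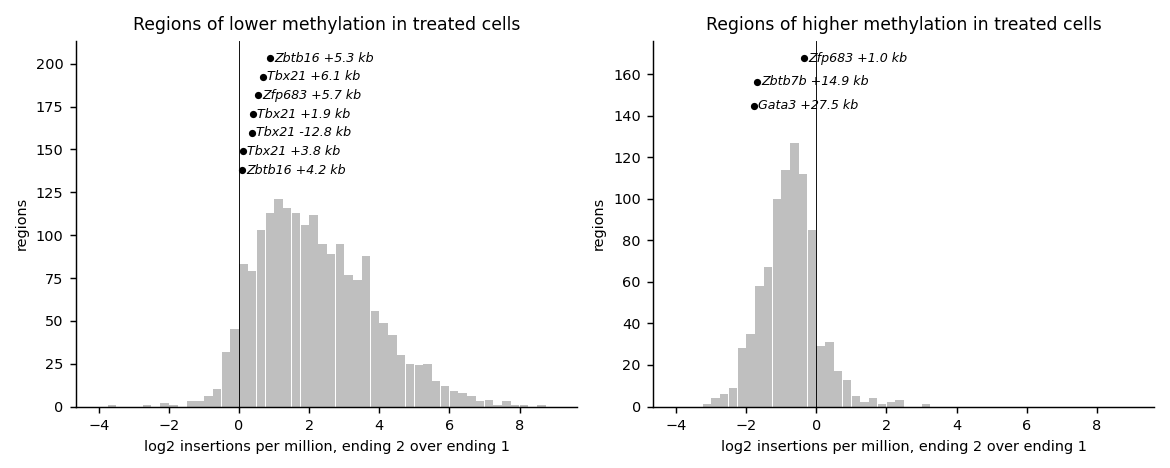
Log2 ratio of IPM (ending 2 over ending 1) in all regions of lower (left) and higher (right) methylation in treated cells, as histograms, with the regions at the factors as points above, named by gene and distance from its start. The factors' 7 regions of lower methylation lie at 0.08 to 0.87, below the median of 2.03 of all such regions.

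Among the regions of lower methylation, that of Zbtb16 in intron 2 had 10.2 IPM (9.70 to 10.7) in ending 1 and 18.7 (18.0 to 19.4) in ending 2, 1.83-fold apart, and was 2.49 and 4.58 times as dense as the DNA 5 to 10 kb away. The Tbx21 region 6.09 kb inside the gene had 9.19 (8.73 to 9.67) and 14.9 (14.2 to 15.5), 1.62-fold apart. The second Zfp683 region had 7.13 and 10.3. The other 3 Tbx21 regions were 1.08-fold to 1.31-fold apart, and the first Zbtb16 region 1.06-fold. None of the 7 was at least 2-fold higher in ending 2, as compared to 74.6% of all 1896 regions of lower methylation with at least 10 insertions, and none was 2-fold lower (0.580%). Of the 161 such regions that started under 40%, as did 5 of these 7, 17.4% were at least 2-fold higher and 1.24% lower, with a median log2 ratio of 0.25. The median over all was 2.03, and 94.5% of them were higher in ending 2. For the regions of higher methylation the median was -0.74, and 12.6% were higher in ending 2.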

How the data were processed

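The count values of SmartSeq2, deposited by the authors as a gene by cell table, come from STAR alignments to GRCm38 and hold reads, not molecules. The 273 untreated and 251 treated cells of the deposited cell sheet were used, and 11 and 31 others were left out. Counts were summed per group and scaled to counts per 1000000 (CPM), with exact Poisson intervals. Shares of cells have exact binomial (Clopper-Pearson) intervals.

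The methylation values deposited by the authors are a fraction of methylated reads for each cytosine, mapped with BSMAP to mm10, with 1 value per group, although several replicates were sequenced. Regions, their means and CpG numbers are the authors'. The region table also holds a q-value and a difference of the means, which were not used. Read depth is not given.

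The chromatin counts are ends of fragments deposited by the authors from Cell Ranger ARC, with both ends of a fragment counted. No doublet caller was run.

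Genes follow GENCODE M21 (GRCm38). Python 3.11.15 with scipy 1.17.1 and edgeR 4.0.16 (TMM scaling only) were used, and the scripts were tested on simulated data. With 1 sample per group no test was made. Named genes are the 7 members, from 7 lists the genes past 2-fold or else the 2 with the most counts, and the 3 genes most like a member read in at least 10% of cells. Ifng and, for their numbers of regions, Irf4, Runx2 and Prdm1 were named after their values were seen. The values of 1 listed gene are not reported here. The members, lists and rules were chosen with earlier results of these data known.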

Additional observations from a re-analysis of the deposited data

How the results depend on the processing

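No factor was called in the summed RNA counts under 9 of the 11 alternatives: all deposited cells, TMM scaling, means of single cells, priors of 0.1 and 10 CPM, 2 other filters, leaving out the highest cell of each group, and, chosen after seeing the data, only cells with reads on a T cell marker. Within lane 1, 2 factors were called (Zbtb16, log2 ratio of 1.07, and Gata3, 1.29), and within lane 2, 1 factor (Zfp683, -1.93), with Zbtb16 at -0.79 and Gata3 at -0.75. The cause was not tested. The share of all genes called was 37.2% with at least 10 summed counts, 29.4% with no filter, 35.3% within lane 2 and 20.1% within lane 1, in place of 15.8%. Runx3 was the 1 factor called by share of cells under all 7 alternatives (log2 ratio from -1.29 to -1.02), of which the lanes and the cells with a T cell marker were added after seeing the data, and 29.0% of all genes were called by share within lane 2, in place of 11.1%. The counts of regions held at 20 and 100 kb, from the gene start and with means over CpG sites, and were 6 lower and 2 higher with at least 20 CpGs. Eomes was the 1 promoter called under all 4 planned chromatin alternatives, and also with RefSeq starts (added after seeing the data), which were had for 5 of the 7 factors (not Zbtb16 and Zfp683). No paired analysis was possible because each group has 1 sample.

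RNA values of Zbtb16, Gata3, Runx3, Zfp683 and Zbtb7b rest on 11 to 28 cells a group, of which 1 cell held up to 39.2% of a sum, and Eomes was read in 1 cell. RNA, methylation and chromatin come from different mice, and the untreated mice of the methylation data were female, those of the RNA male.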
